A study of Homo sapiens with 11 samples.

Results

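Ribosome biogenesis and nucleolar factors were followed in IMR32 cells, a human neuroblastoma cell line that carries many copies of the MYCN oncogene. The set was a list of 52 genes, and its members were all probe sets annotated to 1 of these genes under a current or former symbol. Probe sets were found for 46 of the 52 genes, 92 in number, among 19775 genes and 54675 probe sets on the arrays. BOP1, DKC1, NOP56 and PPAN had no probe set that named them alone, and no probe set was named for GNL3 or EBNA1BP2 here. All 46 genes lay above the filter on dim genes and were tested.

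The study put lentivirus with a short hairpin RNA against MYCN, or with the control hairpin SHC002, into the cells and collected RNA 24, 48 and 72 hours later. Arrays labelled shMYCN numbered 2 at each hour (A and B, 1 hairpin in all), control virus arrays 1 at each hour, and arrays of cells without virus, collected at 0 hours, numbered 2. All groups were the same cell line in serum-containing medium, and the labels do not tell whether A and B were separate cultures, so the spread behind each p-value may be technical. MYCN mRNA itself was not called lower on any of its 10 probe sets in the arrays labelled shMYCN against control virus (smallest limma adjusted p for a negative value at any hour 0.423), so directions here rest on the label. The 4 MYCN probe sets above the dim filter gave log2 fold changes of -0.55, -0.091, -0.52 and -0.35 at 24 hours and 0.93, 0.061, 0.68 and 0.17 at 72 hours, without a call at either time.

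A ribosome is built in the nucleolus, where RNA polymerase I transcribes the ribosomal RNA precursor and many factors cut, modify and fold it while ribosomal proteins bind. Box C/D particles methylate the precursor and box H/ACA particles convert uridine to pseudouridine. The small subunit processome and the large subunit assembly factors then mature each subunit before export. MYC proteins are textbook activators of this programme and bind the E-box CACGTG, and enlarged nucleoli are a known feature of tumours with high MYC activity.

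Promoters are shown first because they carry a sequence feature, the E-box, that a minority of the list held. Whether the choice of the 52 genes drew on known MYC targets is not told in the sources used here. The RefSeq table of build GRCh38.p14 held the promoter, from 250 bases before the transcription start to 50 bases from it onward, of 43 of the 52 genes. The canonical E-box CACGTG, which reads the same on both strands, occurred in 18 of the 43 (41.9 percent). Counting only the first promoter of each gene symbol, it occurred in 7.43 percent of 27305 promoters. Of the 9698 promoters of genes tested on the arrays, 10.7 percent held it. The 3 sequences that follow belong to the members with the smallest p among those with an E-box, and GNL2 is the member with an E-box whose p was largest. LYAR, which fell most and has no CACGTG in this window, was added after its values were seen. Capitals mark the E-box, all run 5′ to 3′ on the strand of the gene, and the intervals are chr2:68157638-68157937 (plus strand), chr6:143843088-143843387 (plus), chr1:19251555-19251854 (plus), chr1:37595888-37596187 (minus) and chr4:4290105-4290404 (minus).
PNO1: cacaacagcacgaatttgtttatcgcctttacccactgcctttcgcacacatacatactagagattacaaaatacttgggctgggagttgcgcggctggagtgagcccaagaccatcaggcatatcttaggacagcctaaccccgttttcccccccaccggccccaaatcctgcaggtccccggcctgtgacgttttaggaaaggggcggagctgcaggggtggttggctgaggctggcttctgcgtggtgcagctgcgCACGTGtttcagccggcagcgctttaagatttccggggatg
LTV1: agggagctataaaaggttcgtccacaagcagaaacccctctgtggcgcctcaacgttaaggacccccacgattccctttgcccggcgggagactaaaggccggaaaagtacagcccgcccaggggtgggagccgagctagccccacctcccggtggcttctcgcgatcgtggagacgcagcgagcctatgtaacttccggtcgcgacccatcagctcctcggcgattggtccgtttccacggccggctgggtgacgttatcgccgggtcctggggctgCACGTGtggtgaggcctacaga
MRTO4: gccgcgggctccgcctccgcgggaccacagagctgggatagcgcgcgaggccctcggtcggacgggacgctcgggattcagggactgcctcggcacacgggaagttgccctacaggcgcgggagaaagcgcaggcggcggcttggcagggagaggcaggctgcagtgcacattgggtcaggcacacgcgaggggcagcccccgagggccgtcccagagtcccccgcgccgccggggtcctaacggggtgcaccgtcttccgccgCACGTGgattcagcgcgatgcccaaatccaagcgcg
GNL2: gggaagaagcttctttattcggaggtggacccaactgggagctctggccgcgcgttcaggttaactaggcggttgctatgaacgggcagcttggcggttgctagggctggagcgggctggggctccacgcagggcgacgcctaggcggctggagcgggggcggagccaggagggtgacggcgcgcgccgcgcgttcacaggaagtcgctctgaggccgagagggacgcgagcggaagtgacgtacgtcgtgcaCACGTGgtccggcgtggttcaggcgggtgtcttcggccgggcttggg
LYAR: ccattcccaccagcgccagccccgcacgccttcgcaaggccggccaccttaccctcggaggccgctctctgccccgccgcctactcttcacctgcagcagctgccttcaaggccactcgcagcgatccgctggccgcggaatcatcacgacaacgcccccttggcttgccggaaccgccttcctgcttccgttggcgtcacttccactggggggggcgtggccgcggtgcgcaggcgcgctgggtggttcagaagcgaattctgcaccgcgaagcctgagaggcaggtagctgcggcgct

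Relative to the transcription start, the first base of the E-box lay at position 10 for PNO1, 29 for LTV1, 15 for MRTO4 and 4 for GNL2. Among the 17 tested members with an E-box, 16 had one within 50 bases of the start (94.1 percent), and UTP14A had its E-box at -241. Of the 1034 promoters with an E-box among genes tested on the arrays, 41.1 percent had one that close. IMP4 and NOP10 had a second E-box farther upstream, at -203 and -170. Of the 17 tested members with it, 9 were lower in shMYCN than with control virus over the 3 times, and of the 21 without it, 11 were. The median log2 fold changes were -0.21 and -0.22. The related sequence CACGCG or CGCGTG was held by 9 of these 21, of which 3 were lower. Of the 12 with none of these sequences, 8 were lower. A match of letters is a description of the sequence and shows no binding.

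**Figure D1:**
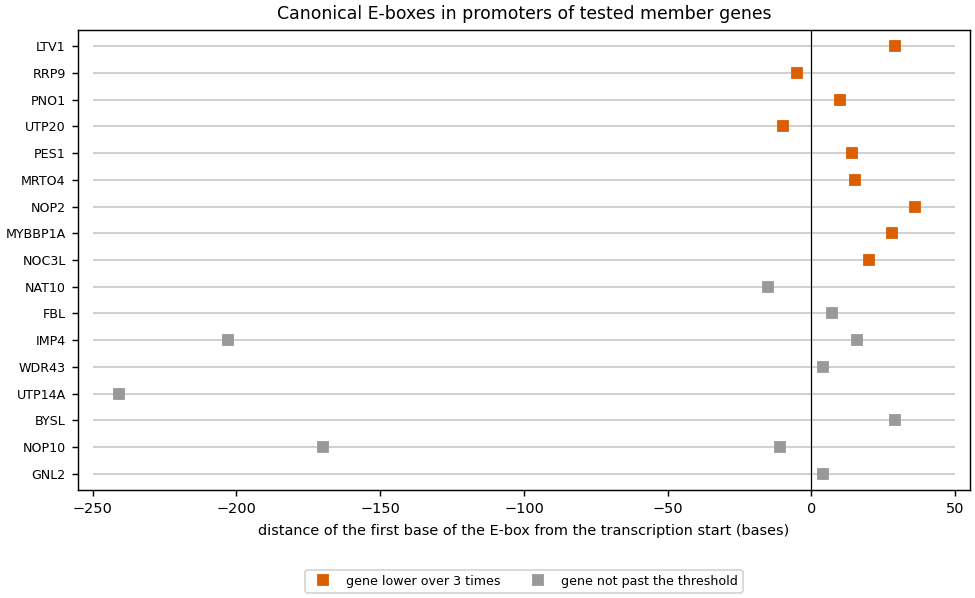
Position of each canonical E-box in the promoters of the 17 tested member genes that hold one, in bases from the transcription start (vertical line), ordered by log2 fold change with the largest fall on top. Orange squares mark genes lower in shMYCN against control virus over 3 times and grey squares genes that did not pass. For 16 of the 17 genes a square lies within 50 bases of the start.

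Across the 3 hours, 23 of the 46 tested members were lower in the arrays labelled shMYCN than with control virus, none was higher, and 23 did not pass limma's test after adjustment over all 11865 genes tested. Of all genes tested, 15.8 percent were called lower and 22.2 percent higher in this comparison. The median log2 fold change was -0.21 over the members and 0.037 over all genes tested. A negative value was found for 40 of the 46 members and for 5286 of the 11865 genes. At an unadjusted limma p under 0.05, 30 members were lower and none higher. All genes were not counted at an unadjusted threshold, here or below, so these counts of members have no share beside them. The falls were moderate: LYAR alone passed with a fall of 2-fold or more. Signals were scaled to the same trimmed mean on every array, so these are levels relative to other mRNAs, and in such bulk RNA fewer cells of a state cannot be told apart from less RNA per cell.

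**Figure D2:**
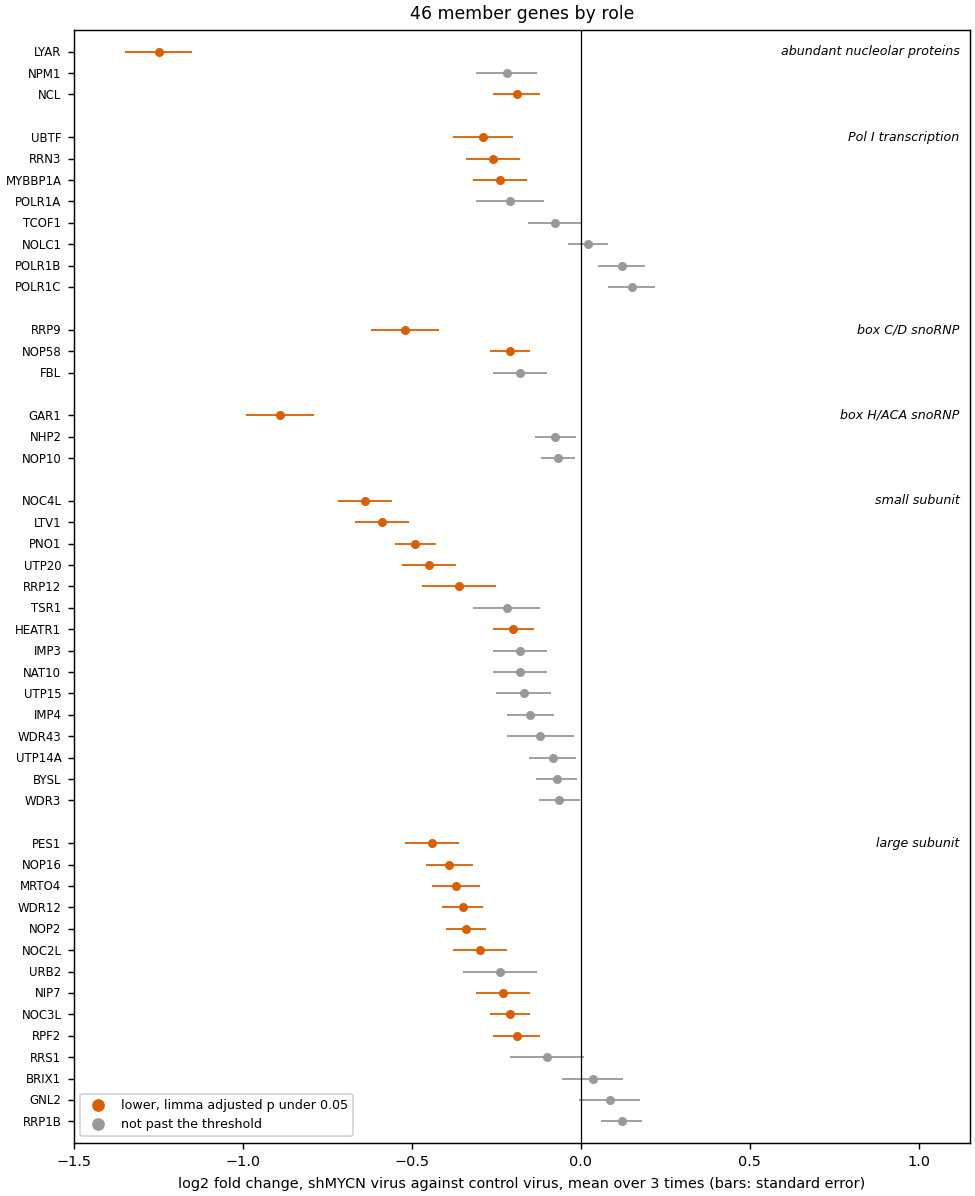
Log2 fold change of the 46 tested member genes in shMYCN against control virus, as a mean over 3 times, grouped by role, with standard errors of the fit as bars. Orange points passed limma's adjusted p of 0.05 and all lie left of 0, from NCL and RPF2 at -0.19 to LYAR at -1.25.

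LYAR, a nucleolar zinc finger protein of growing cells, fell most. It measured 153.4 and 160.3 at 24 hours, 128.7 and 87.1 at 48 hours, and 65 and 60.4 at 72 hours in shMYCN arrays. Control virus gave 263.9, 266.3 and 268.3 at these hours, and cells without virus gave 273.2 and 278.3. Every shMYCN array lay below every other array, and the 5 others were close together. Averaged over the hours, LYAR changed by a log2 value of -1.25 ± 0.10 (standard error, limma adjusted p = 3.62e-06), and at 72 hours it was -1.85 ± 0.17 (limma adjusted p = 1.64e-05). A second LYAR probe set gave -1.09 ± 0.06 over the 3 times.

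NCL (nucleolin) and NPM1 (nucleophosmin), the classical abundant proteins of the nucleolus, moved far less. NCL measured 3899.7 and 3552.4, 3799.9 and 3604.2, and 3374.8 and 3113.3 at 24, 48 and 72 hours in shMYCN arrays, against 4117.5, 4187.5 and 3814.3 with control virus and 3969.7 and 3680.6 without virus. Its 72 hour arrays were the lowest of the 11, while those of 24 and 48 hours overlapped the arrays without virus. NCL passed as lower over the 3 times at -0.19 ± 0.07 (limma adjusted p = 0.0455), and it passed in 9 of 21 alternatives.

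NPM1 measured 6124.6 and 4980.3, 5642.7 and 5558.2, and 5458.2 and 4414.1 in shMYCN arrays, against 6196.4, 6647.1 and 5815.4 with control virus and 5897.2 and 5195.2 without virus. The groups overlapped, and the log2 fold change of -0.22 ± 0.09 did not pass (limma adjusted p = 0.0823). NPM1 probe sets disagreed in sign: in the fit of every probe set on its own, the dimmest of 3 gave 0.31 ± 0.07 (limma adjusted p = 0.0170), and the remaining one gave -0.066 ± 0.08.

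**Figure D3:**
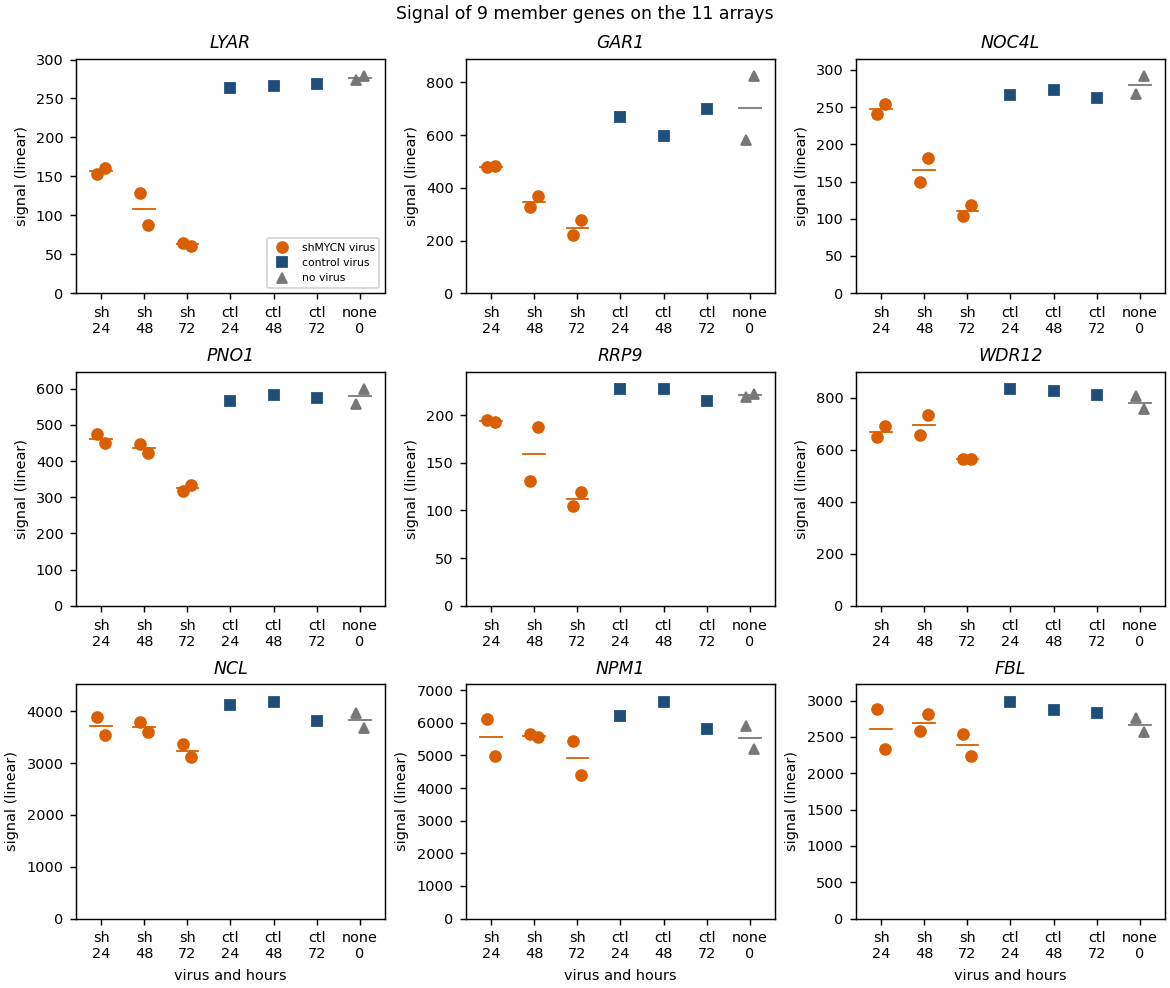
Signal on a linear axis from 0 of 9 member genes on the 11 arrays, with shMYCN virus (orange circles, sh), control virus (blue squares, ctl) and no virus (grey triangles, none) by hour. Short lines are means of 2 arrays. In LYAR, GAR1, NOC4L, PNO1, RRP9 and WDR12 all 6 shMYCN arrays lie below the 5 others, whereas in NPM1 and FBL groups overlap.

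Ribosomal RNA transcription is driven by RNA polymerase I with its factors UBTF, which keeps the ribosomal genes open, and RRN3 (TIF-IA), which recruits the polymerase. Of 8 tested members of this role, 3 were lower and none higher, with a median log2 fold change of -0.14. UBTF measured 287.1 and 285.3, 229.7 and 323.9, and 244 and 256.7 at the 3 hours in shMYCN arrays, against 321.6, 331.6 and 343 with control virus and 301.4 and 303.3 without virus. Array B of 48 hours was the only shMYCN array of UBTF above the arrays without virus. The log2 fold change of UBTF was -0.29 ± 0.09 (limma adjusted p = 0.0274). Of the other UBTF probe sets above the filter, all 3 were negative, at -0.42, -0.32 and -0.25.

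MYBBP1A, a nucleolar protein that binds MYB and polymerase I factors, measured 149.8 and 141.6, 147.6 and 148.1, and 125.5 and 110 in shMYCN arrays. Control virus gave 180, 134.7 and 182.5, and cells without virus gave 145.8 and 162.1. The 72 hour arrays were the lowest, and at 48 hours both shMYCN arrays stood above the control array. MYBBP1A gave -0.24 ± 0.08 over the 3 times (limma adjusted p = 0.0247). The call was lost without the control array of 24 hours or that of 72 hours, or without shMYCN array B of either hour. Here and below, leaving out a control array also takes its whole hour out of the mean. RRN3 gave -0.26 ± 0.08 (limma adjusted p = 0.0295). UBTF passed in 13 and RRN3 in 14 of 21 alternatives, and the calls of both were lost without the control array of 72 hours.

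None of the 3 polymerase I subunits passed over the 3 times, and differences between them were not tested. POLR1A, the largest subunit, gave -0.21 ± 0.10 over the 3 times, which did not pass (limma adjusted p = 0.113), and passed at 72 hours at -0.49 ± 0.17 (limma adjusted p = 0.0430). Both other POLR1A probe sets were called lower on their own, at -0.51 ± 0.13 and -0.49 ± 0.08. POLR1B, the second largest subunit, gave 0.12 ± 0.07 on its brightest probe set, and another POLR1B probe set was called lower at -0.42 ± 0.10, so no direction is given for POLR1B. POLR1C, shared with polymerase III, gave 0.15 ± 0.07 and did not pass. TCOF1 (treacle) gave -0.076 and NOLC1 (Nopp140), a chaperone of small nucleolar particles, gave 0.021. A second NOLC1 probe set gave -0.28 ± 0.07 and was called lower on its own (limma adjusted p = 0.0298), so no direction is given for NOLC1.

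Box C/D particles hold the methyltransferase FBL (fibrillarin) and the scaffold NOP58, and RRP9 binds the U3 small nucleolar RNA. Of 3 tested members, RRP9 and NOP58 were lower. RRP9 measured 194.9 and 192.3, 130.9 and 187.8, and 104.5 and 119.7 at 24, 48 and 72 hours in shMYCN arrays, against 227.3, 227.1 and 215.1 with control virus and 218.8 and 222.6 without virus. All 6 shMYCN arrays lay below the 5 others. RRP9 gave -0.52 ± 0.10 over the 3 times (limma adjusted p = 0.00159) and -0.85 ± 0.17 at 72 hours. Without the control array of 72 hours, when the mean covers 24 and 48 hours only, the call was lost (limma adjusted p = 0.0694).

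NOP58 measured 1537.5 and 1551.8, 1681.6 and 1762.2, and 1306.1 and 1216.2 in shMYCN arrays, against 1928.8, 1934.3 and 1404.9 with control virus and 1833.8 and 1910.5 without virus. The control array of 72 hours was itself low for NOP58, and at that hour the difference of -0.15 ± 0.10 did not pass. Over the 3 times NOP58 gave -0.21 ± 0.06 (limma adjusted p = 0.0114), a call lost without the control array of 24 hours. FBL measured 2886.7 and 2327.1, 2580.1 and 2815.5, and 2542.9 and 2239.5 in shMYCN arrays, against 2984.6, 2873.3 and 2831.8 with control virus and 2755.5 and 2569.3 without virus. FBL arrays overlapped between groups, and its -0.18 ± 0.08 did not pass (limma adjusted p = 0.0994).

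Box H/ACA particles are built of dyskerin with GAR1, NHP2 and NOP10. GAR1 measured 478.1 and 481.2 at 24 hours, 327.4 and 368.6 at 48 hours, and 220.3 and 276.8 at 72 hours in shMYCN arrays. Control virus gave 670.2, 595 and 698, and cells without virus gave 583 and 822.8. No shMYCN array reached the lowest of the others, although the arrays without virus differed widely. GAR1 gave -0.89 ± 0.10 on the log2 scale over the 3 times (limma adjusted p = 6.07e-05) and gave -1.44 ± 0.18 at 72 hours.

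The partners NOP10 and NHP2 did not pass. Dyskerin (DKC1) was measured only by probe sets annotated together with small RNAs, which were not tested. At 72 hours these lay lower in shMYCN than with control virus, by log2 differences of -0.93, -1.02 and -1.11. NOP10 measured 1362.9 and 1406.5, 1363.9 and 1439, and 1213.9 and 1231.6 in shMYCN arrays, against 1475.6, 1411.7 and 1315.6 with control virus and 1385 and 1454 without virus. NOP10 arrays overlapped at 24 and 48 hours, and it gave -0.069 ± 0.05, while NHP2 gave -0.076 ± 0.06. Whether GAR1 differed from NOP10 or NHP2 was not tested.

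Small subunit factors act in the processome around the early precursor and in late steps before export. Of 15 tested members, 6 were lower and none higher, and all 15 had a negative value (median -0.18). NOC4L, partner of NOP14 in nucleolar export of the small subunit in yeast, measured 241.3 and 254.2 at 24 hours, 149.1 and 182.2 at 48 hours, and 104 and 118.1 at 72 hours in shMYCN arrays. Control virus gave 265.6, 273.1 and 262.6, and cells without virus gave 267.7 and 291.1. The 24 hour arrays lay just under the others and the later ones far below them. NOC4L fell by 0.64 ± 0.08 over the 3 times (limma adjusted p = 9.75e-05) and gave -1.14 ± 0.14 at 72 hours.

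PNO1, which helps shape the 3′ end of 18S ribosomal RNA, measured 473.8 and 448.6, 446.9 and 422.5, and 318.5 and 334.8 in shMYCN arrays. Control virus gave 567, 583.1 and 573.5, and cells without virus gave 557.9 and 598.8. All 6 shMYCN arrays lay below the 5 others. PNO1 fell by 0.49 ± 0.06 (limma adjusted p = 6.55e-05), while of its other probe sets one gave -0.51 ± 0.19 and one 0.033 ± 0.10, and neither passed.

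LTV1, a late assembly factor that leaves before final maturation, measured 187.1 and 190.9, 178.4 and 135.2, and 123 and 132.2 in shMYCN arrays. Control virus gave 269.6, 216.3 and 242.5, and cells without virus gave 297.9 and 287.6. LTV1 was low from 24 hours on in every shMYCN array, and it fell by 0.59 ± 0.08 over the 3 times (limma adjusted p = 2.46e-04). A dimmer LTV1 probe set gave 0.058 ± 0.11 and did not pass.

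A further 3 members of the small subunit processome were lower over the 3 times: UTP20 (-0.45), RRP12 (-0.36) and HEATR1 (-0.20). HEATR1 lost its call without the control array of 72 hours and with all probe sets averaged (largest limma adjusted p 0.224). RRP12 passed in 15 of 21 alternatives, and lost the call without the control array of 48 or of 72 hours, without shMYCN array A of 24 or of 72 hours, with no dim filter, and with all probe sets averaged (values from -0.49 to -0.091). The 9 small subunit members that did not pass were TSR1 (-0.22), IMP3 (-0.18), NAT10 (-0.18), UTP15 (-0.17), IMP4 (-0.15), WDR43 (-0.12), UTP14A (-0.084), BYSL (-0.072) and WDR3 (-0.064).

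Large subunit factors assemble the 60S precursor. Of 14 tested members, 9 were lower and none higher (median -0.24). WDR12, which forms the PeBoW complex with PES1 and BOP1, measured 648.7 and 691, 658.8 and 732.9, and 566.8 and 566.1 in shMYCN arrays. Control virus gave 834.1, 824.8 and 812.8, and cells without virus gave 806.1 and 757.9. No shMYCN array overlapped the others, and WDR12 fell by 0.35 ± 0.06 (limma adjusted p = 7.26e-04). Its 2 dim probe sets gave 0.00079 and 0.08, and with all probe sets averaged the call was lost (limma adjusted p = 0.297). PES1 fell by 0.44 ± 0.08 (limma adjusted p = 0.00129).

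MRTO4, which occupies the site of the ribosomal stalk on the precursor, measured 324.7 and 286.2, 254.9 and 276, and 204.4 and 193.8 in shMYCN arrays, against 309.9, 366.5 and 322.3 with control virus and 332.2 and 341.1 without virus. At 24 hours the groups overlapped, and from 48 hours on they did not. MRTO4 fell by 0.37 ± 0.07 over the 3 times (limma adjusted p = 0.00104). Without the control array of 72 hours, when the mean covers 24 and 48 hours only, the call was lost (limma adjusted p = 0.0735).

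NOC2L, a nucleolar factor of large subunit export that also binds histones, measured 120.6 and 128.8, 103.6 and 123, and 86 and 102.1 in shMYCN arrays. Control virus gave 111.1, 128.9 and 185.8, and cells without virus gave 133.6 and 138.3. The control array of 72 hours stood far above the other 10 arrays. NOC2L passed at -0.30 ± 0.08 (limma adjusted p = 0.0159). Leaving out that control array also took the whole of 72 hours out of the mean. The earlier hours alone gave -0.011 (limma adjusted p = 0.959), which cannot separate the part of that array from that of the hour. Against no virus NOC2L gave -0.47 ± 0.12 at 72 hours (limma adjusted p = 0.00772). Its mean over the hours against no virus, -0.27 ± 0.10, did not pass (limma adjusted p = 0.0543).

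Of the remaining large subunit members, NOP16 (-0.39), NOP2 (-0.34), an RNA methyltransferase of 28S ribosomal RNA, NIP7 (-0.23), NOC3L (-0.21) and RPF2 (-0.19) were lower. All of these but NOP2 lost the call without the control array of 72 hours. NOP16 lost it there alone, while NOC3L passed in 17, NIP7 in 13 and RPF2 in 11 of 21 alternatives. URB2 (-0.24), RRS1 (-0.10), BRIX1 (0.035), GNL2 (0.085) and RRP1B (0.12) did not pass. Among all members, GAR1, LTV1, LYAR, NOC4L, NOP2, PES1, PNO1 and UTP20, 8 in number, passed as lower over the 3 times in every one of 21 alternatives that kept control virus as the comparison. Against no virus NOP2 gave -0.18 ± 0.07 and did not pass (limma adjusted p = 0.0705), and the other 7 passed as lower. Without the control array of 72 hours, when the mean covers 24 and 48 hours only, 10 members passed, against 6.54 percent of all genes called lower.

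The differences were larger at the later hours. At 24 hours no member passed limma's adjusted test (7 were lower and none higher at an unadjusted p under 0.05), where 0.590 percent of all genes were called lower and 0.118 percent higher. The most negative values at 24 hours were those of LYAR (-0.70 ± 0.17), LTV1 (-0.48 ± 0.15) and GAR1 (-0.47 ± 0.18). At 48 hours 8 members passed as lower (GAR1, LYAR, MRTO4, NOC4L, NOP2, PES1, PNO1 and UTP20), or 17.4 percent of the members, where 6.90 percent of all genes were called lower and 10.1 percent higher. At 72 hours 20 members were lower and none higher, or 43.5 percent, where 15.7 percent of all genes were lower and 18.3 percent higher. The median log2 fold change of the members was -0.10, -0.14 and -0.32 at the 3 hours, and that of all genes was 0.027, 0.037 and 0.036.

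Set against the arrays without virus instead of the single control virus arrays, a comparison chosen after the data had been seen, 2 members were lower at 24 hours (LYAR and LTV1), 10 at 48 hours and 27 at 72 hours. The shares of all genes called lower there were 1.31, 9.88 and 20.2 percent. These comparisons share the arrays labelled shMYCN with those above. NOC2L gave -0.47 ± 0.12 against no virus at 72 hours (limma adjusted p = 0.00772).

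Whether the difference itself changed with time was tested as the difference at 72 hours minus that at 24 hours. It was more negative at 72 hours for 6 members and less negative for none, where 5.82 percent of all genes were called in that direction and 4.52 percent in the other. The 6 were LYAR (-1.16 ± 0.24, limma adjusted p = 0.0132), NOC4L (-1.04 ± 0.19, limma adjusted p = 0.00799), NOC2L (-1.02 ± 0.21), GAR1 (-0.97 ± 0.25), MRTO4 (-0.63 ± 0.16) and PNO1 (-0.49 ± 0.14). Leaving out either shMYCN array of 24 or of 72 hours left 3 such members, and leaving out either 48 hour shMYCN array, gave 12. Within the arrays labelled shMYCN, 20 members were lower at 72 than at 24 hours and none higher, where 18.3 percent of all genes were lower and 18.1 percent higher. This step uses no control array and so includes time in culture, which cannot be told apart from the hairpin in it. NOC4L (-1.06 ± 0.11), LYAR (-1.14 ± 0.14) and GAR1 (-0.91 ± 0.15) led this step, and 10 to 12 members passed without shMYCN array A or B of 24 hours or array B of 72 hours.

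Array by array, both shMYCN arrays of 72 hours lay below all 5 arrays with control or no virus for 36 of 46 members, which held for 27.5 percent of all genes. The same held for 14 members at 24 hours and 13 at 48 hours, where it held for 9.57 and 16.6 percent of all genes. All 6 shMYCN arrays lay below the 5 others for 9 members (6.52 percent of all genes): GAR1, HEATR1, LTV1, LYAR, NOC4L, PNO1, RRP9, URB2 and WDR12. The gap was narrow for URB2, with 250.1 on shMYCN array A of 72 hours and 250.3 on the control virus array of 24 hours. All 6 shMYCN arrays lay above the 5 others for 0 members (8.42 percent of all genes). POLR1C was the one member whose 72 hour arrays lay above all 5 others (34.1 percent of all genes), at 243.7 and 248.3 against 220.2, 211.5 and 211 with control virus and 227.8 and 229.9 without virus.

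Control virus, averaged over the 3 hours, against no virus called 0 of 46 members by limma (1 lower and none higher at an unadjusted p under 0.05), where 0.00843 percent of all genes were called lower and 0.0253 percent higher. The members ranged from -0.26 for LTV1 to 0.18 for NOP16, and change with time among the single control arrays was not tested. Against no virus, with hairpin arrays of all 3 hours averaged, 16 members were lower and none higher (13.1 percent of all genes lower and 17.7 percent higher). That count was 8 or 9 without 1 of the arrays without virus, and 27 without shMYCN array B of 48 hours. NOP2, NOP16, HEATR1, NOC2L, RRP12, MYBBP1A, UBTF and NCL were called lower against control virus but not against no virus. Their values against no virus ran from -0.28 for RRP12 to -0.11 for NCL. URB2 was called lower against no virus only.

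Other ribosome biogenesis genes and the ribosomal protein genes, whose products are the building blocks, were set beside the members. Of 117 other biogenesis genes tested, 45 were lower and 2 higher over the 3 times (38.5 percent lower, median -0.15). EIF6, which keeps the subunits apart, gave -0.61 ± 0.06, and DIMT1, an 18S ribosomal RNA methyltransferase, gave -0.71 ± 0.07. The higher genes were POLR1D (0.41 ± 0.06), a subunit shared by polymerases I and III, and EXOSC6 (0.24), an exosome subunit. Of 56 ribosomal protein genes, RPL35A alone was lower (-0.21 ± 0.07, limma adjusted p = 0.0388) and none was higher, with a median of -0.10. At 72 hours the medians were -0.32 for the members, -0.24 for the other biogenesis genes and -0.066 for the ribosomal protein genes. At that hour RPL36 (0.47) and RPL10L (0.76) were higher. Against no virus, over the 3 times, the ribosomal protein genes had a median of 0.052, with 10 of 56 negative and none called. The median there was -0.17 for the members and -0.17 for the other biogenesis genes. The difference between these lists was not tested.

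**Figure D4:**
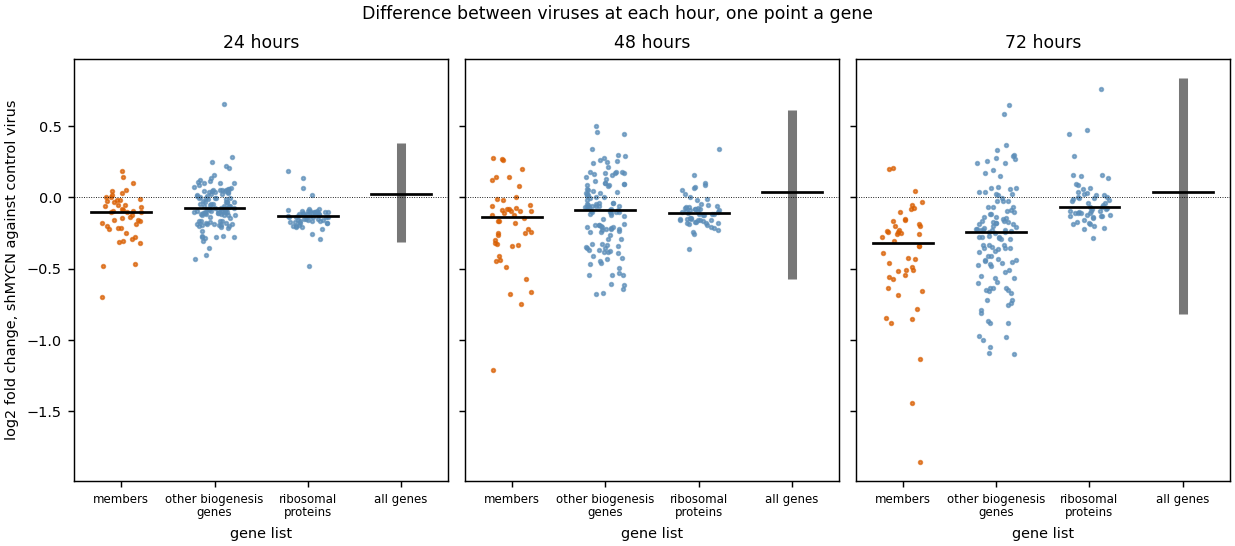
Log2 fold change in shMYCN against control virus at 24, 48 and 72 hours, 1 point a gene, for the members (orange) and for other ribosome biogenesis genes and ribosomal protein genes (blue), with the median as a black line. The grey bar spans the 5th to 95th percentile of all genes tested. The members' median lies at -0.10, -0.14 and -0.32 at the 3 hours and that of ribosomal protein genes at -0.066 at 72 hours.

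Median signals of the 11 arrays lay between 14.9 and 16.7. The 48 hour shMYCN pair was the least alike (standard deviation of its log2 differences 0.271, against 0.172 to 0.186 in the other pairs), and its array A held more of the poly-A spike RNAs (mean log2 signal 7.14, against 6.42 or less on the other arrays). Of 10 adrenergic neuroblastoma markers, 9 lay above the dim filter, and TH, at 0.6 to 25.4, did not. Leukocyte and glial markers (4 and 3 measured) all lay below the filter. Of 4 epithelial markers KRT8 lay above it, at 12 to 28.6, and their summed signal was 26.8 to 66.2 in shMYCN arrays, against 31.2 to 44.9 in the others. The summed signal of 6 mesenchymal markers was 449.7 to 703.9 in shMYCN arrays, against 327.6 to 398.4 in the others. COL1A1 was the one mesenchymal marker above the filter, the other 5 staying at 15.7 or less, and the part of epithelial and mesenchymal markers in the members' changes was not tested.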

How the data were processed

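RNA was measured on 11 one-colour Affymetrix arrays. The authors deposited a linear signal intensity per probe set, made with MAS5 and GCOS per the submitters' processing notes. From the values, each array was scaled to a mean of 100 over probe sets between the lowest and highest 2 percent. Background correction is not given in the sources used here.

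Gene symbols came from the platform's annotation (41091 with 1 symbol, 1801 with several), and 41037 symbols were looked up by Entrez number in RefSeq (GRCh38.p14). A gene was represented by its brightest probe set, and the dimmest 40 percent of 19775 genes were left out (signal under about 14.8), which left 11865. Group means were fitted on log2(signal + 16), which understates changes of dim genes, with limma 3.58.1 in R 4.3.3 over all 11 arrays (lmFit, contrasts.fit, eBayes with trend, 4 residual degrees of freedom). Single control arrays were assumed to vary like the pairs. All p-values are two-sided and adjusted by the Benjamini-Hochberg method over the genes tested, with a threshold of 0.05. Single probe sets were tested in 1 fit over 41091. The procedure was tested on simulated data.

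The members, lists and tests were chosen with earlier results of these data known. Values per array are given for the 2 members of each role with the smallest p, for NCL, NPM1 and FBL, for members called higher, and for the 3 largest calls in each direction in other comparisons. POLR1C was shown after its values were seen. Alternatives were the offset, scaling, filter, probe set summary, variance trend, blocks, left-out arrays and, added later, cells without virus as reference. Differences of A minus B were little correlated between hours (-0.051, 0.038 and 0.10), which does not settle whether the letters mark paired cultures. The number of arrays limits the precision.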

Additional observations from a re-analysis of the deposited data

Results flagged for a closer look

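The difference between shMYCN and control virus was more negative at 72 than at 24 hours for 6 members in a test of that change itself. The change on the log2 scale was -1.16 for LYAR, -1.04 for NOC4L, -1.02 for NOC2L, -0.97 for GAR1, -0.63 for MRTO4 and -0.49 for PNO1. For NOC2L the control array of 72 hours gave 185.8, against 111.1 and 128.9 on the other control virus arrays, and its part in the change was not tested. PNO1 lay at the threshold (limma adjusted p = 0.0498).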

How the results depend on the processing

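Each hour rests on 1 control array and 1 hairpin. Every tested member lay above the dim filter, although the offset understates changes where signals are low. Over 21 alternatives, the 23 members called lower over the 3 times gave 483 values, of which 416 were still called lower and 67 were not. A control array left out also takes its hour out of the mean over the 3 times. Leaving out 1 array gave 10 to 27 members lower over the 3 times (10 without the control array of 72 hours), 0 to 3 at 24 hours, 7 to 15 at 48 hours and 14 to 27 at 72 hours. It gave 3 to 12 for the change of the difference, 10 to 29 for 72 against 24 hours, 8 to 27 for shMYCN against no virus, and 0 to 2 members higher over the 3 times and at 48 hours. With quantile normalization 1 member was called higher over the 3 times (RRP1B), 1 at 48 hours (NOLC1) and 1 at 72 hours (RRP1B). At 24 hours 1 member (LYAR) was lower with the mean of all probe sets and 2 against no virus. With no filter on dim genes 5 were lower at 48 hours and 3 in the change of the difference, which also had 3 with the mean of all probe sets and 3 without the variance trend. With that mean, WDR12 at 72 against 24 hours reversed to 0.071 (limma adjusted p = 0.576). The causes were not tested.

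In one alternative, shMYCN arrays of the same letter formed a random replicate block and the control virus arrays formed another. The labels do not say that these blocks were cultures. There 23 members were lower over the 3 times and 5 in the change of the difference. With letters A and B as a fixed replicate block 25 were lower over the 3 times and 22 at 72 hours.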

Other observations

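Probe sets annotated to a member together with small RNAs or with another gene were not tested, and their signal cannot be given to 1 gene. The 3 probe sets annotated to DKC1 with SNORA56 and MIR664B lay lower in shMYCN than with control virus at 72 hours by log2 differences of -0.93, -1.02 and -1.11. On the brightest of them the arrays labelled shMYCN gave 1573.5 and 1471.1 at 24 hours, 1149.6 and 1346 at 48 hours, and 864.9 and 849.1 at 72 hours. Control virus gave 1854, 1804.7 and 1757.9, and cells without virus gave 1747.5 and 1700.1. Both probe sets annotated to BOP1 with MIR7112 differed by -1.33 and -0.86 at 72 hours, and both annotated to NOP56 with small RNAs by -0.58 and -0.49. The probe set annotated to PPAN and PPAN-P2RY11 differed by -0.35.

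Among member genes with several probe sets, 40 further probe sets lay above the dim filter, and 23 of them had the sign of the brightest one. For genes called lower over the 3 times, 15 of 22 further probe sets were negative, 5 were called lower on their own and none was called higher. Of all 41091 probe sets tested on their own, 2833 were called lower and 3218 higher.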
